A study of Mus musculus with 2 samples.

Results

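The miR-23/27/24 twin clusters are a pair of microRNA (miRNA) gene clusters, called a and b, that each encode a miR-23, a miR-27 and a miR-24 hairpin. Their entries were chosen by name, as every listed row whose name begins, after the species prefix, with miR-23a, miR-23b, miR-27a, miR-27b or miR-24, whichever the strand. This gave 15 of the 1018 entries of the tables, 8 from the a cluster, 5 from the b cluster and 2 for miR-24-3p, which both clusters make. Of the 15, 11 carry human names and 4 mouse names, although the samples are from mice. The study sequenced small RNA from heart mitochondria of mice treated with streptozotocin (STZ), which destroys insulin-producing beta cells and so makes mice diabetic, and of control mice, and asked how the mitochondrial miRNAs of the diabetic heart differ. There was 1 STZ library, with 706860 assigned reads, and 1 control library, with 508182. The labels give no strain, age, dose or time, and do not say whether animals were pooled. A single library per group allows neither a replicate check nor a p-value, so "higher" and "lower" compare these 2 libraries, not the conditions. Levels are in RPM, the usual scaling of reads to the size of the library. All intervals are 95% intervals that cover counting error alone: without molecular identifiers, copies made by PCR are counted as separate reads.

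A miRNA hairpin yields a 5p and a 3p strand, of which usually one is loaded into Argonaute and guides it to messages that pair with the seed, bases 2 to 8 of the miRNA. The hairpins of a cluster are typically cut from a shared primary transcript, and later steps also affect the level of each strand. Primary transcripts were not measured here. In the heart and its vessels these miRNAs are well studied: miR-23a promotes growth of cardiomyocytes, miR-27 represses regulators of fat metabolism such as Pparg, miR-24 represses the death factor Bim, and both clusters act in blood vessel growth.

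The sequences show which mouse strands can be told apart. Human sequences were not at hand, so whether human-named and mouse-named rows stand for the same sequence was not checked. Those shown are mouse sequences from RefSeq (GRCm38.p6), 5′ to 3′, for the strands on which the results turn, with the seed in capitals.
miR-23a-3p: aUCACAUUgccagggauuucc
miR-27a-3p: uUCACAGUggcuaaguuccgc
miR-27b-3p: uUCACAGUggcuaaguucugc
miR-24-3p: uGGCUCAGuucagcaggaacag
miR-27a-5p: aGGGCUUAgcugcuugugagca
miR-27b-5p: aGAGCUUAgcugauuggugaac
miR-24-2-5p: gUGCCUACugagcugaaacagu
miR-24-1-5p: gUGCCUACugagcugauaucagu

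The 3p strands of miR-27a and miR-27b share their seed and differ only by C19U (position counted from 1 at the 5′ end, miR-27a first), so 1 base assigns a read to the a or the b cluster. The same holds for miR-23: the Mir23b hairpin holds a stretch that differs from miR-23a-3p by 1 base near the 3′ end. The mature miR-23b-3p itself was not among the RefSeq sequences. The 5p strands of miR-27a and miR-27b are easier to separate, with 8 of 22 positions different, the first of them G3A inside the seed. The seeds of miR-23a-3p and miR-27a-3p agree in their first 5 bases, whereas that of miR-24-3p is unrelated. The miR-24-3p strand is the same from both hairpins, and only the 5p strands tell them apart: miR-24-2-5p (a cluster) and miR-24-1-5p (b cluster) share their first 16 bases and part after them. Where these 5p strands sit is shown by the hairpins of Mir27b, Mir24-2 and Mir24-1, with both mature strands in capitals.
Mir27b: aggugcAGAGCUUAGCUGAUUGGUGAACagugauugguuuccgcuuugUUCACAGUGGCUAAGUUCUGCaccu
Mir24-2: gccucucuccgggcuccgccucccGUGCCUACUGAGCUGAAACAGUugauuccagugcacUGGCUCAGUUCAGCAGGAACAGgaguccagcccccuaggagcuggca
Mir24-1: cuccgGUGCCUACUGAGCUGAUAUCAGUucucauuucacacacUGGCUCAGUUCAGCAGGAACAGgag

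On GRCm38, the a cluster (Mir23a, Mir27a, Mir24-2) spans 404 bases of the plus strand, at chr8:84208518-84208921, and lies in no annotated protein-coding gene. The last 2 bases of Mir24-2 overlap an exon of the long noncoding RNA Gm26532. The b cluster (Mir23b, Mir27b, Mir24-1) spans 792 bases, at chr13:63300484-63301275, inside the protein-coding gene 2010111I01Rik on the same strand and inside an intron of Fancc on the opposite strand. There, Mir23b is intronic, while Mir27b and Mir24-1 also overlap exons of 2010111I01Rik transcripts of which some are annotated as subject to nonsense-mediated decay. Each miR-24 hairpin has an annotated miRNA hairpin on its other strand (Mir3074-2 and Mir3074-1), and both miR-3074 strands were listed at 0 reads in the STZ and in the control library.

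The 5 main strands together held 7.59% of STZ reads and 8.16% of control reads, a ratio of 0.930 (0.918 to 0.942). Beneath this small difference the families parted: both miR-27 strands were higher in the STZ library, both miR-23 strands were lower, and miR-24-3p had the lowest ratio. The split ran mainly between families. The miR-23 and miR-27 strands summed by cluster hardly differed between a and b, though within each family the a member took a slightly larger part in the STZ library. None of the 5 was 2-fold apart.

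hsa-miR-24-3p had 12036 reads (17027 RPM) in the STZ library and 12606 reads (24806 RPM) in the control. Its STZ to control ratio of RPM was 0.686 (0.669 to 0.704). This was the lowest ratio of the 5, and only in the control was miR-24-3p the most abundant of them.

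hsa-miR-27a-3p had 5247 reads (7423 RPM) in the STZ library and 3017 reads (5937 RPM) in the control, a ratio of 1.25 (1.20 to 1.31). hsa-miR-27b-3p had 14185 reads (20068 RPM) in the STZ library and 8757 reads (17232 RPM) in the control, a ratio of 1.16 (1.13 to 1.20). Both members of the miR-27 family were therefore higher in the STZ library.

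hsa-miR-23a-3p had 14235 reads (20138 RPM) in the STZ library and 10513 reads (20687 RPM) in the control, a ratio of 0.973 whose interval (0.949 to 0.998) ended just below 1. hsa-miR-23b-3p had 7935 reads (11226 RPM) in the STZ library and 6589 reads (12966 RPM) in the control, a ratio of 0.866 (0.838 to 0.895). The miR-23 family was thus lower in both members, by little in miR-23a-3p.

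**Figure D1:**
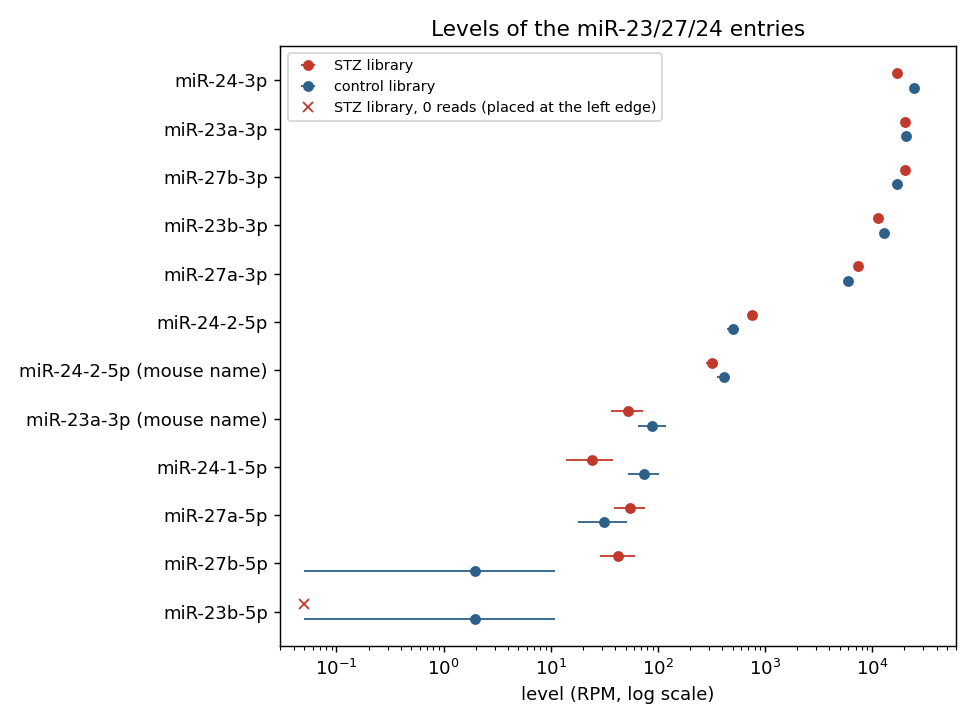
Level in RPM (log scale) of the 12 miR-23/27/24 entries with at least 1 read, in the STZ library (red, upper point of each row) and the control library (blue, lower point), with exact Poisson 95% intervals. A cross at the left edge marks 0 reads (miR-23b-5p in the STZ library). The 5 main strands lie between 5937 and 24806 RPM and far above the other entries. Among entries with reads in both libraries, miR-27b-5p shows the widest gap.

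The order of the levels changed with it. In the STZ library miR-23a-3p and miR-27b-3p led and could not be ranked by counting error (ratio of reads 1.00, interval 0.980 to 1.03), followed by miR-24-3p, miR-23b-3p and miR-27a-3p. In the control library miR-24-3p led, followed by miR-23a-3p, miR-27b-3p, miR-23b-3p and miR-27a-3p, each step beyond its counting interval. Among all named entries miR-24-3p ranked 15 in the STZ library and 10 in the control, whereas miR-23a-3p ranked 12 and miR-27b-3p ranked 13 in both. miR-23b-3p ranked 19 in the STZ library and 17 in the control, and miR-27a-3p ranked 24 in the STZ library and 28 in the control.

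Of the reads of the 5 main strands, miR-27 held 36.2% in the STZ library and 28.4% in the control, while miR-24-3p held 22.4% in the STZ library and 30.4% in the control. The miR-23 share was nearly equal, at 41.3% in the STZ library and 41.2% in the control. These shares add up to the whole, so a gain in one is a loss in the others.

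**Figure D2:**
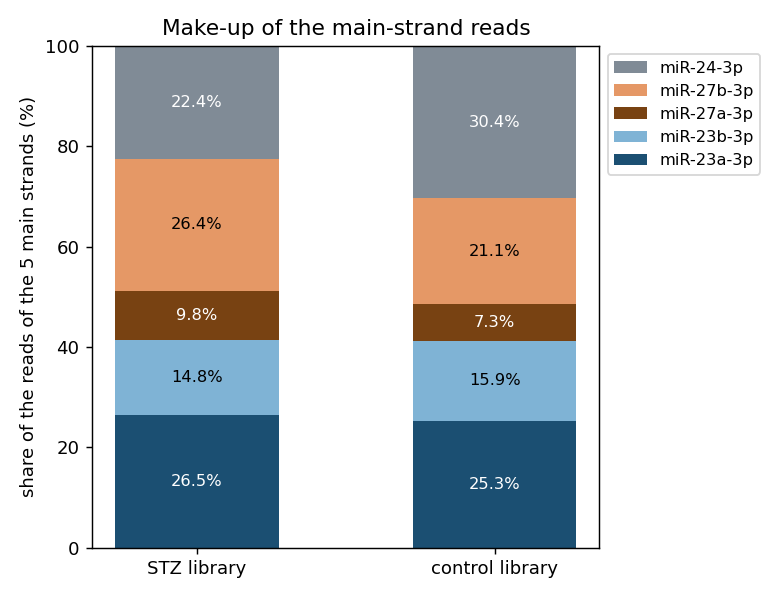
Share (%) of the reads of the 5 main strands held by each, in the STZ library (left bar) and the control library (right bar). The orange and brown miR-27 parts make up 36.2% of the STZ bar and 28.4% of the control bar, and the grey miR-24-3p part 22.4% of the STZ bar and 30.4% of the control bar.

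Ratios of reads inside a library do not depend on how the libraries are scaled to each other. miR-24 stood to miR-27, main strands, at 0.619 (0.605 to 0.634) in the STZ library and at 1.07 (1.04 to 1.10) in the control. The odds ratio, the ratio in the STZ library over that in the control, was 0.579 (0.559 to 0.599). miR-24 stood to miR-23 at 0.543 (0.531 to 0.555) in the STZ library and at 0.737 (0.720 to 0.754) in the control, an odds ratio of 0.737 (0.713 to 0.761). Thus miR-24-3p, the strand that both clusters supply, was lower against either partner family in the STZ library.

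The ratio of miR-23 to miR-27 was lower in the STZ library within each cluster, and by a similar factor. In the a cluster, miR-23a-3p stood to miR-27a-3p at 2.71 (2.63 to 2.80) in the STZ library and at 3.48 (3.35 to 3.63) in the control, an odds ratio of 0.779 (0.739 to 0.820). In the b cluster, miR-23b-3p stood to miR-27b-3p at 0.559 (0.544 to 0.575) in the STZ library and at 0.752 (0.729 to 0.777) in the control, an odds ratio of 0.743 (0.713 to 0.776). The 2 odds ratios have overlapping intervals. The levels themselves ran in opposite order, with miR-23 above miR-27 in the a cluster and miR-27 above miR-23 in the b cluster, in both libraries. All 10 pairs of main strands had an odds ratio whose interval excluded 1, by factors between 1.07 (miR-27a-3p to miR-27b-3p) and 1.82 (miR-24-3p to miR-27a-3p).

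Summed over miR-23 and miR-27, the a and b strands, by contrast, kept nearly the same proportion. miR-23a-3p and miR-27a-3p together had 19482 reads in the STZ library and 13530 in the control, a ratio of RPM of 1.04 (1.01 to 1.06). miR-23b-3p and miR-27b-3p together had 22120 reads in the STZ library and 15346 in the control, a ratio of RPM that was also 1.04 (1.02 to 1.06). The a to b ratio of reads was therefore 0.881 (0.864 to 0.898) in the STZ library and 0.882 (0.861 to 0.902) in the control, an odds ratio of 0.999 (0.969 to 1.03). The proportion of these sums thus differed by less than counting error, which the interval bounds.

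Within each family the a member took a slightly larger part in the STZ library. miR-23a-3p stood to miR-23b-3p at 1.79 (1.75 to 1.84) in the STZ library and at 1.60 (1.55 to 1.65) in the control, an odds ratio of 1.12 (1.08 to 1.17). miR-27a-3p stood to miR-27b-3p at 0.370 (0.358 to 0.382) in the STZ library and at 0.345 (0.330 to 0.359) in the control, an odds ratio of 1.07 (1.02 to 1.13). Both shifts go toward the a member. The cluster sums, in which the families have unequal shares, do not show them. All these a to b ratios rest on the assignment of reads by 1 base, which was not checked.

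**Figure D3:**
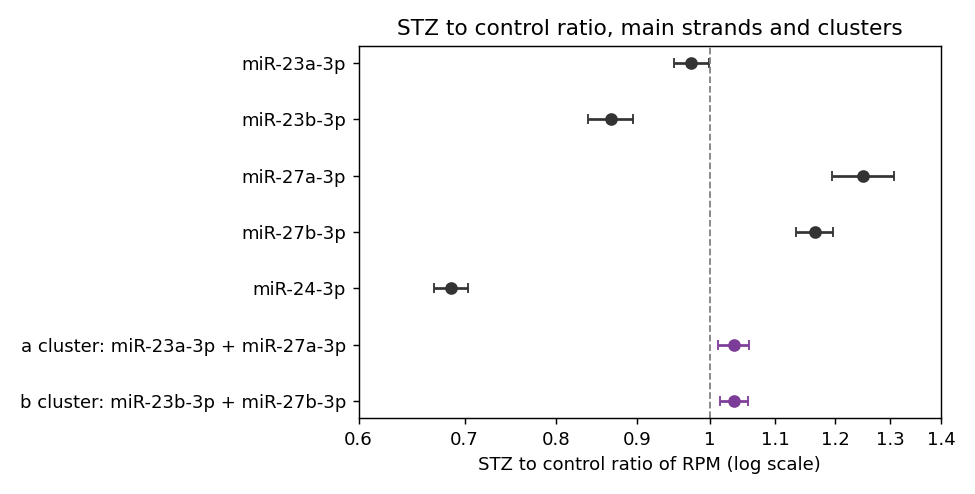
STZ to control ratio of RPM (log scale) of the 5 main strands (black) and of the summed miR-23 and miR-27 strands of each cluster (purple), with exact 95% counting intervals and a dashed line at 1. The miR-27 strands lie right of 1 and miR-24-3p and the miR-23 strands left of it, while the 2 cluster sums both stand at 1.04.

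A ratio past its counting interval is usual at this depth. Of the 30 named entries with a mean of at least 5000 RPM, 93.3% had an interval that excluded 1 and 0.00% were 2-fold apart, and all 5 main strands are among the 30. In the order of their ratios, which ran from 0.639 to 1.70 with a median of 0.984, miR-24-3p was the third from the lowest, miR-23b-3p stood at place 8, miR-23a-3p at 14, miR-27b-3p at 25 and miR-27a-3p at 27. The 5 strands therefore spread over most of the range of abundant miRNAs. The other named entries closest to their summed ratio of 0.930, among 56 with a mean of at least 1000 RPM and over these 2 libraries only, were let-7d-3p (0.923), miR-30e-5p (0.915) and miR-186-5p (0.914).

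A miRNA outside the clusters, miR-128-3p, carries the miR-27 seed moved by 1 base, so that the miR-27 seed (UCACAGU) lies at its bases 1 to 7.
miR-128-3p: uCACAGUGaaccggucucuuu
miR-128-3p had 1019 reads (1442 RPM) in the STZ library and 524 reads (1031 RPM) in the control, a ratio of 1.40 (1.26 to 1.56). It was higher in the STZ library, as miR-27a-3p and miR-27b-3p were, at a far lower level: miR-27 main strands had 19.1 times its reads in the STZ library and 22.5 times in the control. The RefSeq table also gives the miR-24-3p seed (GGCUCAG) to miR-6413, miR-6410, miR-6369 and miR-5124b, none of which has a row here. The human-named miR-23c, outside the naming rule, had 2 STZ reads and 3 control reads.

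The remaining 10 entries are 5p strands and second, mouse-named rows, and together held 0.125% of STZ reads and 0.112% of control reads. Of all 15 entries, 11 had a mean of at least 10 RPM, the minimum for a call by size, and 4 did not. Differences called by size are at least 2-fold on the scale of log2(RPM + 1), which understates those of low entries. By this rule 1 of the 11 was higher in the STZ library (miR-27b-5p) and 1 lower (miR-24-1-5p), that is 18.2%, beside 17.8% higher and 18.5% lower, in all 36.3%, of the 314 named entries with the same minimum. Both are low: of the 120 such entries with 20 to 99 reads over both libraries, 34.2% were higher and 21.7% lower, so calls like these are common at such counts. miR-27b-5p also met the minimum of 10 RPM through the STZ library alone (42.4 RPM, against 1.97 RPM in the control), which favours a call as higher. The interval of the ratio excluded 1 for 10 of the 11, above it for 4 and below it for 6, beside 65.0% of the 314. This share depends on depth, so the 314 are not a like background. It was 93.3% for the named entries of at least 5000 RPM, which include the 5 main strands. The median log2 difference of the 11 was -0.04, against -0.02 over the 314.

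**Figure D4:**
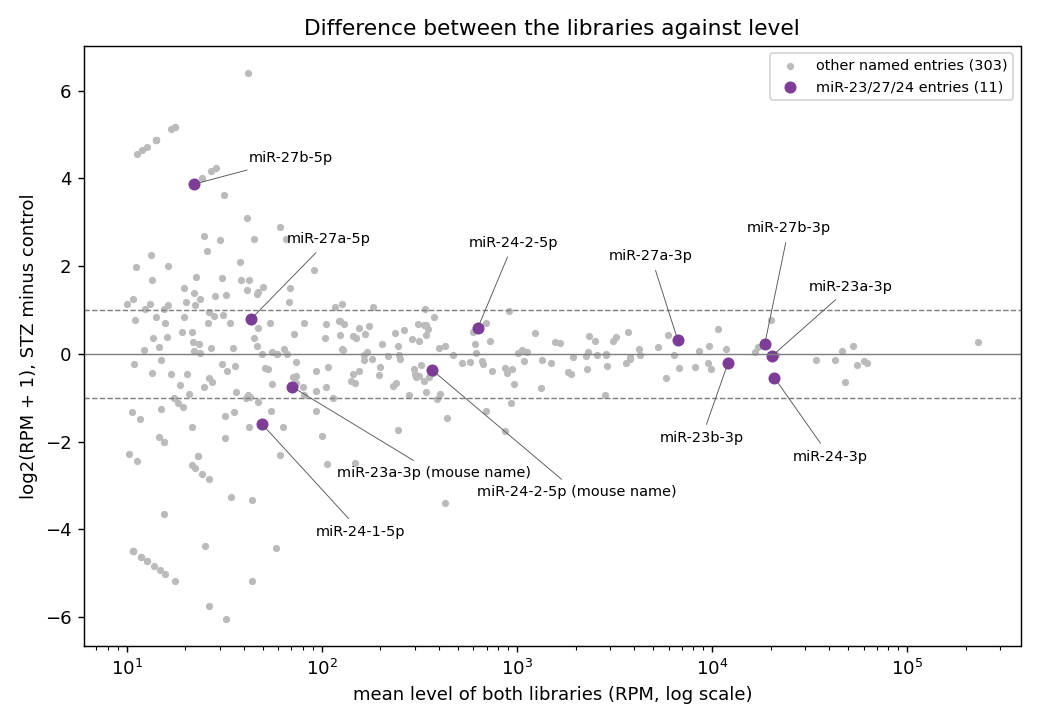
Difference in log2(RPM + 1), STZ minus control, against the mean level of both libraries (RPM, log scale) for the named entries that reached a mean of 10 RPM, 11 of miR-23/27/24 in purple and the other 303 in grey, and dashed lines at a 2-fold difference. The main strands lie inside the dashed lines at the right, and miR-27b-5p and miR-24-1-5p outside them at the left, where many grey points do too.

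The 5p strand of miR-27b had 30 reads (42.4 RPM) in the STZ library and 1 read (1.97 RPM) in the control. Its ratio of RPM was 21.6, with a wide interval (3.59 to 880), and its log2 difference 3.87. Set against its own 3p strand, there were 2.11 reads of miR-27b-5p per 1000 of miR-27b-3p in the STZ library (1.43 to 3.02) and 0.114 in the control (0.00289 to 0.636), an odds ratio of 18.5 (3.08 to 756). Over both libraries, 49 precursors had 20 or more reads on each strand, and of these 28.6% shifted at least 2-fold toward the 5p strand in the STZ library with an interval excluding 1, and 6.12% toward the 3p strand. miR-27b had the second highest odds ratio of the 49. Its 5p strand reached the minimum of 20 reads only through the STZ library, so this place is partly set by the minimum.

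The paralogous miR-27a-5p had 39 reads (55.2 RPM) in the STZ library and 16 reads (31.5 RPM) in the control, a ratio of RPM of 1.75 whose interval (0.957 to 3.36) included 1. Per 1000 reads of miR-27a-3p there were 7.43 (5.28 to 10.2) in the STZ library and 5.30 (3.03 to 8.63) in the control, an odds ratio of 1.40 (0.764 to 2.69). Between the paralogs, miR-27a-5p stood to miR-27b-5p at 39 to 30 reads in the STZ library and at 16 to 1 in the control, an odds ratio of 0.0813 (0.00188 to 0.593). By these reads the miR-27 5p strands shifted toward the b cluster, while their 3p partners shifted slightly toward the a cluster. The 5p shift rests on 1 control read of miR-27b-5p.

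The 5p strands of miR-23 were almost unread. miR-23a-5p had 0 reads in both libraries, with an interval that reached 5.22 RPM in the STZ library and 7.26 RPM in the control. miR-23b-5p had 0 reads in the STZ library and 1 in the control. Their 3p partners, by contrast, are among the 5 main strands.

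miR-24-2-5p was the most abundant 5p strand of the clusters in both libraries, and the miR-24 5p strands differed by hairpin. The human-named miR-24-2-5p (a cluster) had 535 reads (757 RPM) in the STZ library and 256 reads (504 RPM) in the control, a ratio of 1.5 (1.29 to 1.75). The mouse-named row of miR-24-2-5p had 227 reads (321 RPM) in the STZ library and 210 reads (413 RPM) in the control, a ratio of 0.777 (0.641 to 0.942). These 2 rows went in opposite directions, and summed they had a ratio of 1.18 (1.05 to 1.32).

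From the b cluster, miR-24-1-5p, listed under its human name, had 17 reads (24.1 RPM) in the STZ library and 38 reads (74.8 RPM) in the control, a ratio of 0.322 (0.170 to 0.584). With both rows of miR-24-2-5p, the a to b ratio of miR-24 5p reads was 44.8 (27.8 to 77.4) in the STZ library and 12.3 (8.80 to 17.6) in the control, an odds ratio of 3.66 (1.98 to 6.98). No mouse-named row of miR-24-1-5p is listed, so this sets summed namings against a human-named row alone. Between human-named rows the ratio was 31.5 (19.5 to 54.4) in the STZ library and 6.74 (4.78 to 9.74) in the control. The odds ratio was then 4.67 (2.51 to 8.99). The 5p reads thus leaned toward the a cluster hairpin in both libraries and more so in the STZ library. They do not show how many miR-24-3p reads came from each hairpin.

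Against miR-24-3p, all miR-24 5p rows together had 64.7 reads per 1000 (60.1 to 69.6) in the STZ library and 40.0 per 1000 (36.5 to 43.7) in the control, an odds ratio of 1.62 (1.44 to 1.82). The human-named miR-24-2-5p alone had an odds ratio of 2.19 (1.88 to 2.56) and miR-24-1-5p alone one of 0.469 (0.248 to 0.851). For the mouse-named miR-24-2-5p it was 1.13, with an interval (0.933 to 1.37) that included 1. The level of the summed 5p rows was 1102 RPM in the STZ library and 992 RPM in the control, a ratio of 1.11 whose interval (0.992 to 1.25) included 1, so the odds ratio goes mainly with the lower miR-24-3p. By the 2-fold rule, which 1.62 does not reach, 28.6% of precursors shifted toward the 5p strand and 6.12% toward the 3p strand. Those that shifted had at most 70 reads on their smaller strand over both libraries. The miR-24 5p rows had 779 reads in the STZ library and 504 in the control, so these shares are not a like background. Of the miR-24 5p rows, the human-named miR-24-2-5p was the one with an interval above 1.

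**Figure D5:**
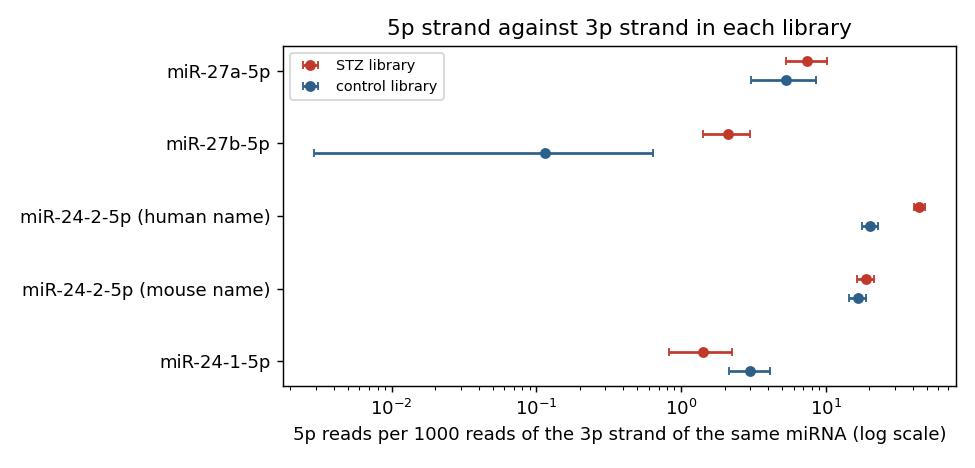
Reads of each 5p strand per 1000 reads of the 3p strand of the same miRNA (log scale), with exact 95% intervals, in the STZ library (red, upper point) and the control library (blue, lower point). The STZ point lies right of the control point for miR-27a, miR-27b and both miR-24-2 rows and left of it for miR-24-1.

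The naming of the rows itself differed between the libraries. The human-named row of miR-24-2-5p had 2.36 times the reads of its mouse-named row (2.01 to 2.76) in the STZ library and 1.22 times (1.01 to 1.47) in the control, an odds ratio of 1.93 (1.51 to 2.47). The mouse-named row of miR-23a-3p had 37 reads (52.3 RPM) in the STZ library and 45 (88.6 RPM) in the control, a ratio of 0.591 (0.372 to 0.934), beside 14235 STZ reads and 10513 control reads under the human name. The mouse-named rows of miR-24-3p and miR-27a-5p had 0 reads in both libraries. How reads were divided between such rows is not given in the sources used here, and its part in these differences was not tested.

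Markers of cell types in the heart differed between the libraries beside these results. The heart muscle list (miR-1-3p, miR-133a-3p, miR-208a-3p, miR-499a-5p) was detected in 4 of 4 members, summing to 315086 RPM in the STZ library and 280496 RPM in the control, with 2 members higher and 2 lower by their intervals. The endothelial list (miR-126-3p and miR-126-5p) summed to 43490 RPM in the STZ library and 66130 RPM in the control, with 2 of 2 lower, and the smooth muscle list (miR-143-3p and miR-145-5p) to 51920 RPM in the STZ library and 61769 RPM in the control, with 2 of 2 lower. The red cell list (miR-451a, miR-144-3p, miR-144-5p) summed to 2043 RPM in the STZ library and 3875 RPM in the control, with 2 of 3 lower, and the liver miRNA miR-122-5p stood at 73.6 RPM in the STZ library and 787 RPM in the control. None of the listed markers was at 0. miR-24-3p and the miR-23 strands were lower in the STZ library, as were the summed endothelial, smooth muscle and red cell lists and miR-122-5p. Of the heart muscle list, miR-133a-3p and miR-208a-3p were lower too. The miR-27 main strands were higher, as were miR-1-3p and miR-499a-5p. The part of cell make-up in these differences was not tested. In such bulk libraries fewer cells of a type and less RNA per cell cannot be told apart, and no entry here marks mitochondria, so the labelled organelle was not checked.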

How the data were processed

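Small RNA of heart mitochondria was compared in 1 STZ and 1 control library, grouped by the labels. Per the labels' protocols, adapters were ligated to both ends of total RNA and cDNA was amplified by PCR. No molecular identifiers are named there. Per the submitters' processing notes the build was GRCm39; an aligner or miRNA reference is not given in the sources used here. Those deposited values are a signal in RPM, scaled by the authors to a common total. A row without a name, a subtotal equal to 96.6% of the STZ total and 96.5% of the control total, was left out.

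The plan allowed for normalized values. All values were whole multiples of 1 read (100% within 0.001), 1.41 RPM in the STZ and 1.97 RPM in the control library, which gave whole reads. Ratios have exact conditional binomial intervals, odds ratios exact conditional intervals and levels exact Poisson intervals. With 1 library per group, edgeR's test has no residual degrees of freedom and was not run. Calls by size needed 2-fold on log2(RPM + 1) and a mean of 10 RPM. The rule for named miRNAs took all 15 entries, miR-128-3p, miRNAs sharing a seed, and the 3 entries closest in ratio. miR-23c and miR-3074 were added after their values were seen. Members, lists and settings were chosen with earlier results of these data known. RefSeq sequences matched 10 of 11 mature names (not miR-23b-3p). Coordinates are GRCm38 (RefSeq, GENCODE) and were not used with the files.

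Alternatives used the median of ratios (DESeq2 1.42.0), TMM (edgeR 4.0.16), other minimums, folds and pseudocounts, and summed rows. Python 3.11.15, pandas 2.3.3, numpy 2.4.6, scipy 1.17.1, matplotlib 3.10.9 and R 4.3.3 were used, and functions were tested on simulated reads.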

Additional observations from a re-analysis of the deposited data

How the results depend on the processing

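No paired analysis was possible because there is a single library of each kind, and none can be omitted. Scaling by TMM, by DESeq2 size factors or by totals that leave out the 10 most abundant entries shifted all log2 ratios by 0.01, 0.01 and -0.01, and the log2 ratios of the 5 main strands stayed within their counting intervals under these and both pseudocounts, as did miR-24-3p and miR-23a-3p, the main strands with a second row, when namings were summed. The upper end of the miR-23a-3p interval, a ratio of 0.998, would move past 1 with TMM or DESeq2 size factors. Its interval therefore lay below 1 only with scaling by totals. Summing namings gave log2 0.23 for both miR-24-2-5p rows (0.59 and -0.36 apart) and -0.04 for the mouse-named miR-23a-3p (-0.75 alone). Of the 15 entries, 1 was called higher and 1 lower. With no minimum level 2 were lower, at 1.5-fold 3 were higher and 2 lower, and at a mean of 100 RPM 0 were higher and 0 lower. Over all named entries the 56 higher and 58 lower became 143 and 123 with no minimum and 4 and 9 at 100 RPM. An interval excluding 1, a setting added after the data were seen, changed neither call among the 15. The a to b ratios of the miR-23 and miR-27 strands stayed within their intervals. That of the miR-24 5p strands depended on the rows used. From human-named rows alone it was 31.5 in the STZ library and 6.74 in the control (odds ratio 4.67). With summed namings it was 44.8 and 12.3 (3.66). The 5p to 3p ratio of miR-24 from human-named rows, 0.0459 in the STZ library and 0.0233 in the control (odds ratio 1.97), became 0.0647 and 0.0400 (1.62) with summed namings, and the control value 0.0203 with miR-24-2-5p alone. With miR-24-1-5p alone it was 0.00141 and 0.00301, and the odds ratio reversed to 0.469. Depth limits the 5p strands most, since miR-27b-5p rests on 1 control read.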
